A study of Mus musculus with 2 samples.

Results

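*Arl6* and the 8 genes of the BBSome were examined in a chromatin immunoprecipitation sequencing (ChIP-seq) map of a Dux chimera. The gene set was given by name, and its peaks were chosen by position: every deposited peak whose summit lay inside one of the 9 genes or within 20 kb of it. This gave 27 of 51356 peaks, of which 1 belonged to *Arl6* and 26 to BBSome genes. *Arl6* was singled out because the peak beside it was already known to be among the strongest in the list, so its strength is given here as a description, with no test.

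The experiment used C2C12 cells, an established mouse myoblast line, from a single clone that carries the transgene MMH under doxycycline control. MMH is a codon-altered chimera whose homeodomains come from mouse Dux and whose carboxy terminus comes from human DUX4, so that DUX4 antisera can precipitate it. Both libraries came from MMH cells under 2 ug/ml doxycycline for 18 h, 1 precipitated with the antisera MO488 and MO489 and 1, the control, labelled as HA antibody (the design text of the study names GFP instead). Duplicate removal left 26253175 antisera fragments and 23412256 control fragments, per the file headers. With 1 library per group and 1 peak list there was no replicate check, no uninduced sample was used, and a peak list holds no expression values by which the myoblast label could be checked. Intervals below are 95% Poisson intervals of the pileup with the background held fixed, and cover counting error only.

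The BBSome is a protein complex that carries membrane receptors into and out of the primary cilium, the antenna-like organelle of most vertebrate cells. *Arl6*, also called *BBS3*, encodes the small GTPase that recruits the BBSome to membranes when it is bound to GTP. Inherited loss of these genes causes Bardet-Biedl syndrome, with retinal degeneration, obesity and extra digits. Dux and DUX4 are double-homeodomain transcription factors of the early embryo.

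*Arl6* and its BBSome partners differed widely in how strongly the chimera was enriched nearby. The peak beside *Arl6* had a pileup of 1670 fragments over its summit (interval 1591 to 1752) and the authors' fold enrichment was 333 (318 to 350). The highest of the 26 BBSome peaks, inside *Bbs9*, reached 246 fragments and 49.3-fold (43.3 to 55.8). The *Arl6* value was 6.77 times that fold. Its pileup was 1.20 times the sum of the 26 BBSome summit pileups, 1397. That sum adds heights at single positions and does not count the fragments in those peaks. The BBSome peaks had a median fold of 7.38, from 3.99 to 49.3, against 8.02 for all peaks in the list. Of the 26, 19 were under 10-fold, and in the whole list a fold of 9.97 already lay above 61.1% of peaks. *Bbs9* alone gave 15 of the 26. Local background, the number of fragments that the peak caller expected at the summit, was 4.01 at the *Arl6* peak and at 21 of the 26 BBSome peaks. That is the lowest value in the list, found at 78.0% of all peaks. Background reached at most 6.73 at the other BBSome peaks.

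**Figure D1:**
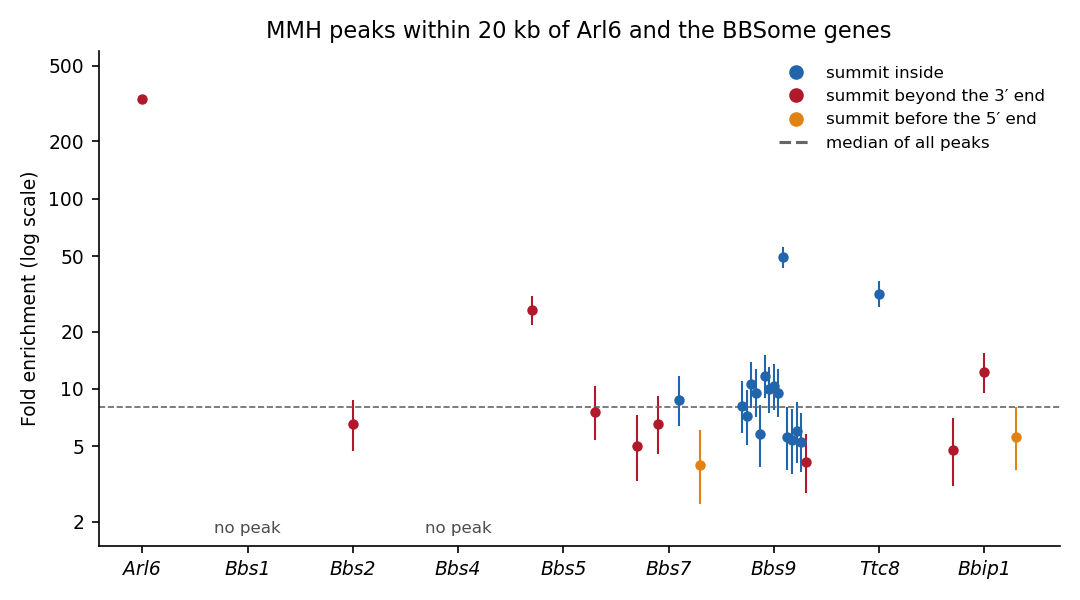
Fold enrichment (log scale) of each of the 27 peaks within 20 kb of the 9 genes, with 95% Poisson intervals of the pileup as bars. Colour gives the place of the summit relative to the gene, and the dashed line is the median of all peaks, 8.02. The *Arl6* peak at 333-fold stands above every BBSome peak, the highest of which is 49.3-fold at *Bbs9*, and *Bbs1* and *Bbs4* have none.

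The *Arl6* peak lay outside the gene, beyond its 3′ end. It spanned chr16:59608062-59609914 in mm10, with the summit at 59609045. RefSeq places *Arl6* (gene identifier 56297) at chr16:59612949-59639409 on the minus strand, so the summit was 3904 bp past the end of the gene and 30294 and 30364 bp from its 2 annotated start sites. The nearest start site of a coding gene in the RefSeq promoter table was instead that of *Crybg3*, whose product has beta/gamma-crystallin domains. *Crybg3* is also on the minus strand, at chr16:59492088-59601047, and the summit lay 7998 bp upstream of its start. No annotated gene of any type covered the summit. Whether *Arl6*, *Crybg3* or neither responds to this site was not tested, since no expression data were used here.

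The promoter of *Arl6* itself carried no peak. Neither of its 2 promoter windows, each from 250 bases before to 50 bases after a start site, shared a base with any peak, and the peak nearest to a start site lay 25264 bp away. The window of the upstream start site is printed here as promoter sequence of *Arl6* that no peak covered. It lies at chr16:59639360-59639659 on the minus strand (RefSeq, GRCm38.p6, the assembly behind mm10), and is written in lower case because it held neither motif described below.

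Arl6: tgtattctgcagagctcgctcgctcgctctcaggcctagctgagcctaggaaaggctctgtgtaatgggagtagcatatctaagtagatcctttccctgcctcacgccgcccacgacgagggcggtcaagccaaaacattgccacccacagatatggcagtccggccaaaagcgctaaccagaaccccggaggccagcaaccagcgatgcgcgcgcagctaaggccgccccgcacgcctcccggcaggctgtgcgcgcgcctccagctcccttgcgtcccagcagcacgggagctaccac

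The *Arl6* peak was high and broad. It ranked 3 by fold, 13 by pileup and 5 by −log10 p among the 51356 peaks, and first by fold among the 2056 on chromosome 16, where the next highest had 121-fold and 604 fragments. Its width, 1853 bp, was reached by 68 peaks (0.132%), against a median of 430 bp. The summit lay near the middle, 983 bp from the left edge and 869 bp from the right. The folds next to it in the whole list were 365 above and 272 below. The nearest other summit was 31051 bp away, against a median of 12314 bp over all peaks. Among the 83 peaks of 100-fold or more, the median distance to the nearest other summit was 3709 bp, and 8 had a larger gap than the *Arl6* peak. Of the 81 of these that could be set against start sites in the table, 71 lay farther from a coding start site than the *Arl6* peak did, with a median of 107181 bp, and 5 lay within 1 kb of one.

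The surroundings of *Arl6* held no other peak of similar height. Within 200 kb on either side of the summit there were 8 others, from 4.79- to 32.1-fold with a median of 11.0. The highest of the 8, inside *Epha6*, lay above 94.6% of all peaks. It was 1855 bp wide, against 1853 bp for the *Arl6* peak. The nearest on the left was 11.2-fold (55 fragments) inside *Crybg3*. On the right it was 21.3-fold (106 fragments), 55628 bp from the summit, where *4930547E14Rik*, a long noncoding RNA gene, overlaps *Epha6*, an ephrin receptor gene. That peak lay 25264 bp from *Arl6* and so just missed the 20 kb limit. *Epha6*, 969479 bp long, held 28 peaks with a best fold of 38.1. Of the remaining coding genes nearby, *Gabrr3*, a GABA receptor subunit, held 1 peak of 10.8-fold, and *Riox2*, a ribosomal oxygenase gene, held none.

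**Figure D2:**
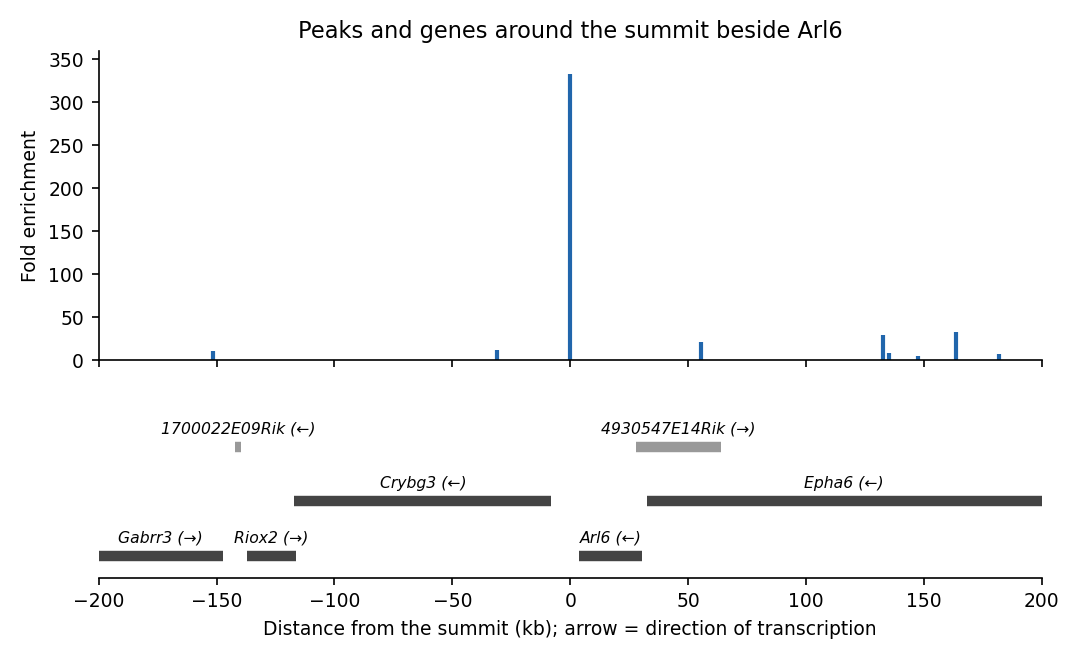
Peaks (upper panel, fold enrichment) and genes (lower panel, dark for coding and pale for long noncoding RNA genes) within 200 kb of the summit beside *Arl6*, plotted by distance from it in kb. The 333-fold peak sits in the gap between the 3′ end of *Arl6* and the start of *Crybg3*, and the 8 other peaks reach at most 32.1-fold.

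The genes most like *Arl6* were taken as the coding genes with the next ranks of best fold within 20 kb, over this 1 peak list. *Crybg3* shares the peak and therefore the value. The gene above was *1110059E24Rik*, with 3431 fragments and 365-fold (353 to 377) at a summit inside the gene. The genes below were *Tdpoz3* with 1922 fragments and 191-fold (183 to 200), *Zscan4c* with 924 fragments and 178-fold (167 to 190) and *Zscan4f* with 816 fragments and 163-fold (152 to 175). *Tdpoz3* and the *Zscan4* genes belong to multi-copy families of the early embryo, and the copies can share reads. The local background was above its lowest value at *1110059E24Rik* (8.41 fragments) and *Tdpoz3* (9.06), and at that lowest value at *Arl6*. By pileup *Tdpoz3* was therefore above *Arl6* (1670 fragments), and it was below by fold only over its higher background.

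**Figure D3:**
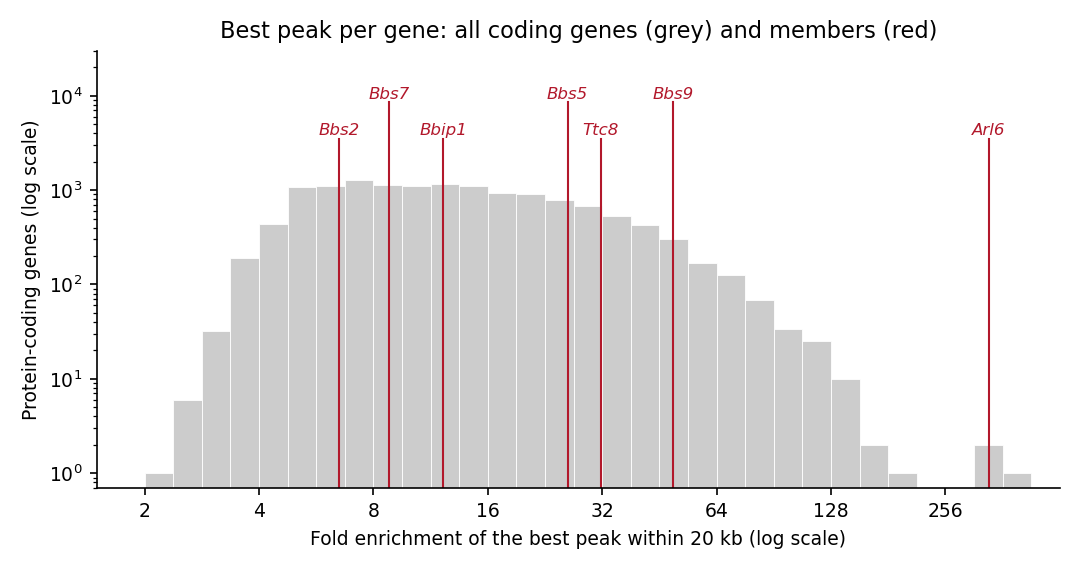
Number of protein-coding genes (log scale) by the fold enrichment of their best peak within 20 kb (log scale), in grey, with the 7 members that had a peak marked in red. *Arl6* at 333-fold lies in the far tail, while the 6 BBSome genes lie from 6.51-fold at *Bbs2* to 49.3-fold at *Bbs9*. These 2 values are above 19.2 and 95.7% of the best folds of coding genes with a peak.

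Of the 9 genes, 7 had at least 1 peak within 20 kb (77.8%), and the same held for 62.3% of all 21883 coding genes, so having a peak does not set these genes apart. Among coding genes from 0.5 to 2 times as long, the share was 57.6 to 78.2% for 8 of the members and 98.6% for *Bbs9*. A best peak of 20-fold or more was found at 4 of the 9 genes, against 17.3% of coding genes. These were *Arl6*, *Bbs9*, *Ttc8* and *Bbs5*. *Arl6* was singled out for its peak, so its place in that count was fixed beforehand, which leaves 3 of 8 BBSome genes. Over the 6 BBSome genes with a peak the median best fold was 19.1, against 12.2 for all coding genes with a peak. Neither comparison allows for gene length, and no excess is read from them. Among coding genes of similar span with a peak, the median best fold was 25.7 for *Bbs9* and 10.6 to 13.2 for the other BBSome genes. Of the 9 genes, 0 had any base of a peak over a promoter window, against 2.58% of coding genes, and the closest that any summit came to the start site of its member was 2618 bp, at *Bbip1*. At that background share, 0 of 9 sets the genes apart no more than their count of peaks.

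The subunits *Bbs1*, *Bbs2*, *Bbs7* and *Bbs9* carry beta-propeller domains. *Bbs9* (chr9:22475559-22888283, plus strand) was the only BBSome gene with many peaks, 15, of which 14 lay inside it. It is also by far the longest of the set, at 412725 bp. Its peak density, 3.31 per 100 kb of gene and flanks (counting interval 1.85 to 5.46), can be read against a mean of 1.92 over coding genes. The shorter windows of *Bbip1* (5.46 per 100 kb, interval 1.13 to 15.9), *Bbs7* (4.98, interval 1.36 to 12.7) and *Bbs5* (3.29, interval 0.399 to 11.9) gave similar or higher densities from few peaks. The interval of each of these 3 includes that mean, and that of *Bbs9* does so too. The 15 peaks of *Bbs9* can be set against a median of 7 in the 858 coding genes of similar span. A single peak dominated: at chr9:22779453-22780210, 304109 bp into the gene, it had 246 fragments, and the next highest had 58 (11.8-fold). The median over the 15 was 8.18-fold. The best fold of *Bbs9* ranked 577 among coding genes.

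*Bbs7* (chr3:36573142-36613492, minus strand) had 4 weak peaks. The strongest, 8.78-fold (6.41 to 11.8), lay inside the gene, 24989 bp from its start. Those of 6.58- and 4.99-fold lay inside the neighbouring cyclin A2 gene *Ccna2*. All 4 intervals overlapped the median of the whole list or fell below it. Just past the limit, 29332 bp from *Bbs7*, was a much higher peak of 47.7-fold with 238 fragments.

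*Bbs2* (chr8:94067952-94099369, minus strand) had 1 peak of 6.51-fold (4.73 to 8.74), 5306 bp beyond its 3′ end and inside *Ogfod1*. *Bbs1* (chr19:4886878-4906653, minus strand), the subunit that binds *Arl6* protein directly, had no peak within 20 kb. The nearest summit lay 32472 bp away, with 23 fragments and 4.79-fold. *Bbs4* (chr9:59321966-59353508, minus strand), a subunit of tetratricopeptide repeats, had none either, and its nearest summit, 54807 bp away, had 22 fragments and 4.59-fold. The list holds only called peaks, the lowest with 13 fragments, so enrichment below the authors' threshold at these 2 genes was not detectable here.

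*Ttc8* (chr12:98920537-98983250, plus strand), known as BBS8 and also built of tetratricopeptide repeats, had a single peak at chr12:98977234-98977841, inside the gene and 56962 bp from its start. It had 158 fragments and 31.7-fold (27.0 to 37.0), above 94.4% of all peaks. *Bbip1* (chr19:53929656-53944627, minus strand), the smallest subunit, had 3 peaks, all in neighbouring genes. The strongest, 12.2-fold (9.49 to 15.5), and one of 4.78-fold lay in *Pdcd4*, a gene for an inhibitor of translation. The third, 5.59-fold, lay in *Shoc2*, which encodes a scaffold of RAS signalling. The *Bbip1* and *Shoc2* genes overlap at their starts, and this summit was 2369 bp from the *Shoc2* start site.

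*Bbs5* (chr2:69646848-69667571, plus strand), whose product binds phosphoinositides, had 2 peaks, both past its 3′ end and both inside *Klhl41*. *Klhl41* encodes a kelch-family protein of skeletal muscle. The stronger peak, chr2:69669813-69670770, had 129 fragments and 25.9-fold (21.7 to 30.8), and its summit lay 330 bp from the *Klhl41* start site and 23279 bp from that of *Bbs5*. The second had 37 fragments and 7.58-fold. The stronger peak covered all 300 bases of the *Klhl41* promoter window, at chr2:69669870-69670169 on the plus strand. It is the only coding promoter window in the table under any of the 27 peaks, and is printed for that reason (RefSeq, GRCm38.p6).

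Klhl41: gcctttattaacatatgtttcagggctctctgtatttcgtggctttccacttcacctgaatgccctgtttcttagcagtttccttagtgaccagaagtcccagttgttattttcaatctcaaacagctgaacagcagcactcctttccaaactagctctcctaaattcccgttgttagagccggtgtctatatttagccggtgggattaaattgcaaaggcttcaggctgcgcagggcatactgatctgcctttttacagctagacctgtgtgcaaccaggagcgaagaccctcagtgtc

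The 10 promoter windows of the members, and in addition the printed window of *Klhl41*, were searched on both strands for 2 motifs. The mouse Dux motif was TGAT and AATCA separated by 2 bases. The human DUX4 motif was TAAT and AATCA separated by 2 bases. The motifs differ at their second letter, so no stretch is counted under both on the same strand. Neither was found in any of them. That says little, because the mouse motif was in 0.202% and the human motif in 0.362% of all 21262 coding promoter windows. Windows that held a peak summit had the mouse motif in 11 of 279 cases (3.94%), and windows that shared no base with a peak had it in 0.140%. The human motif was in 2.15 and 0.342% of these. Sequence under the *Arl6* summit was not analysed here.

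**Figure D4:**
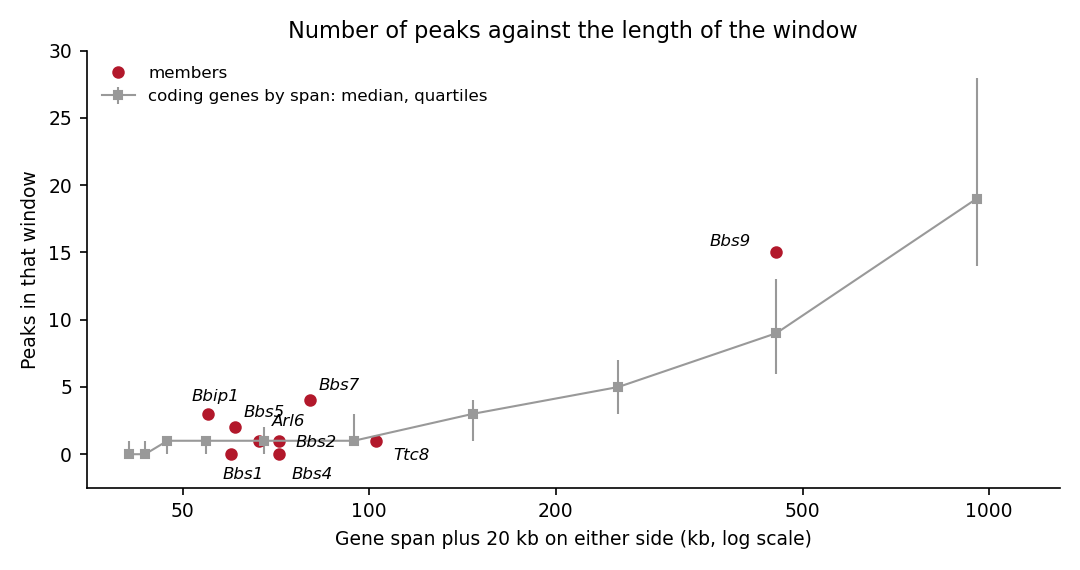
Number of peaks against the length of each gene plus 20 kb on either side (log scale), for the 9 members (red) and for coding genes grouped by span (grey squares are medians, bars the quartiles). *Arl6* has 1 peak, the median for its length, while *Bbs9* with 15 lies above the upper quartile of its class, 13.

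Seen over all 27 peaks, 16 summits lay inside a member, 9 beyond a 3′ end and 2 before a 5′ end. Of the 16 inside, 14 were in *Bbs9*, 1 in *Bbs7* and 1 in *Ttc8*. Of the 11 outside, 9 lay inside another gene, which leaves the *Arl6* peak and 1 of 4.14-fold past *Bbs9* in intergenic DNA. A member was the nearest coding gene for the *Arl6* peak and for 17 of the 26 BBSome peaks, 15 of them at *Bbs9*.

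Other genes of cilia and of the GTPase family of *Arl6* had no peak as strong. That was nearly settled by the choice of *Arl6*, whose best fold ranked 2 among all coding genes. Over 70 distinct genes in 8 further lists, 51 had a peak within 20 kb (72.9%, against 62.3% of coding genes). A fold of 20 or more was reached at 13 of the 70, against 17.3% of coding genes, and the highest was 44.7. ARF-like GTPases, the relatives of *Arl6*, had a peak at 11 of 18 genes (61.1%). The median best fold over those 11 was 22.1, against 12.2 for all coding genes with a peak. A fold of 20 or more was reached at 6 of the 18, against 17.3% of coding genes. Gene length was not allowed for, and no excess is read from either value. The strongest peak of this family was inside *Arl13a* (44.7-fold, 223 fragments). *Arl2*, which acts in tubulin folding, followed with 35.3-fold and *Arl4c* with 31.1-fold. The *Arl2* summit lay inside *Sac3d1*, 16936 bp outside *Arl2*, and the *Arl4c* summit lay 16320 bp outside *Arl4c*. ARF GTPases had a peak at 5 of 6 genes, led by *Arf4* (22.3-fold), *Arf5* (12.8-fold) and *Arf1* (9.97-fold). The *Arf4* and *Arf5* summits lay 17478 and 13618 bp outside these genes, and that of *Arf1* inside the gene.

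Of the chaperonin-like genes that assemble the BBSome, *Bbs12* had 26.1-fold and *Bbs10* 12.0-fold, both outside the gene, and *Mkks* had no peak. Partners of *Arl6* and BBSome traffic had a peak at 3 of 7 genes (42.9%, against 62.3% of all coding genes). The 3 were *Rab3ip*, an exchange factor for Rab8 (17.2-fold), *Pcm1* of the centriolar satellites (8.58-fold) and *Ccdc28b* (7.58-fold). The *Pcm1* summit lay 4815 bp outside the gene, and the *Ccdc28b* summit 12495 bp outside, inside *Tmem234*. Of 8 other Bardet-Biedl genes 7 had a peak (87.5%), against 89.9% of coding genes of 80000 to 160000 bp. That class holds the median span of this list, 89046 bp. The strongest peak lay inside *Wdpcp* (43.7-fold), followed by those of *Ift74* (19.9-fold) and *Cep290* of the ciliary transition zone (18.8-fold). *Wdpcp*, at 326719 bp, is also a long gene, with 7 peaks.

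The intraflagellar transport (IFT) genes encode the trains on which the BBSome travels. The IFT-A complex, with *Tulp3*, had a peak at 7 of 7 genes, against 62.3% of all coding genes and 77.3% of those of 40000 to 80000 bp, the class that holds the median IFT-A span of 72888 bp. It was led by *Ttc21b* (37.3-fold, inside the gene), *Ift140* (24.1-fold) and *Wdr35* (24.1-fold). The *Ift140* summit lay 18192 bp outside the gene, inside *Cramp1l*, and the *Wdr35* summit lay 997 bp outside. The IFT-B complex had a peak at 13 of 17 genes (76.5%). For coding genes of 20000 to 40000 bp, the class that holds its median span of 34718 bp, the share was 64.5%. Its strongest peaks were those of *Hspb11* (21.5-fold), *Ift74* and *Ift52* (18.2-fold). The *Hspb11* summit lay 1661 bp outside the gene, inside *Lrrc42*, and the *Ift52* summit 3439 bp outside, inside *Sgk2*. Receptors that the BBSome carries had a peak at 5 of 7 genes (71.4%). For coding genes of 10000 to 20000 bp, the class that holds their median span of 12352 bp, the share was 56.4%. None of the 7 reached 20-fold, which 17.3% of coding genes did, and 7 genes are too few to show a lack at that share. The highest were the neuropeptide Y receptor *Npy2r* (11.0-fold), the somatostatin receptor *Sstr3* (8.48-fold) and *Gpr161* (8.38-fold). The *Gpr161* summit lay 7524 bp outside the gene, inside *Tiprl*.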

How the data were processed

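BWA, MACS2 and mm10 are named in the submitters' processing notes. A single peak calling was made, per the file headers: MACS 2.1.0.20151222 compared paired-end antisera fragments with the control library at a q-value of 0.01, and 1 fragment was kept per position. Mapping and filter settings were not given in the sources used here. The deposited pileup is a signal, the antisera fragments over the summit. The authors' −log10 p and −log10 q were used only to rank and filter peaks, and the deposited fold is a ratio, (pileup + 1) over (local background + 1). The background was recovered from it and checked by recomputing p. The result matched within 1% for 100% of the 50196 peaks whose recomputed p was finite. The strongest peaks, with p too small to recompute, were left out of that check, among them the *Arl6* peak (−log10 p of 3655).

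Peaks were assigned to RefSeq gene spans (GRCm38.p6), and start sites were taken from promoter windows, in a table that does not list every gene. Python 3.11.15, pandas 2.3.3 and SciPy 1.17.1 were used, and the assignment was tested on simulated data. All 9 members were named, with up to 3 genes per list by −log10 p, all genes within 100 kb of the *Arl6* summit, and the coding genes with the 3 best folds next above and below that of *Arl6* (only 1 exists above). *Gabrr3*, *Riox2* and the genes that hold a member's peak were named after values were seen. Of the list entries 1, *Cfap418*, found no match. The members and lists were chosen with earlier results of these data known. The planned motif search of peaks was limited to promoter windows. The place of 1 *Bbs7* peak is not reported here.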

Additional observations from a re-analysis of the deposited data

How the results depend on the processing

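The alternatives choose which deposited peaks count and cannot change the fold of a counted peak. The *Arl6* peak was counted under all of them but the gene body alone, since it lies outside the gene. The number of members with a peak, 7 of 9, was 6 to 8 over distances from 5 to 50 kb and 7 at stricter q-values, with any overlapping base and without high-background peaks. It fell to 3 in the gene body alone, 4 in the strongest 10% of peaks by −log10 p and 4 when a peak was given only to its nearest coding gene, each of which counts fewer peaks by construction. Within 50 kb the best fold rose to 11.4 at *Bbs2* and 47.7 at *Bbs7*. It rose less at *Bbip1*, from 12.2 to 14.4, and at *Ttc8*, from 31.7 to 32.5. In the gene body alone the density of peaks was 0 at *Arl6*, *Bbs2*, *Bbs5* and *Bbip1*. No paired analysis was possible because each group has 1 library. Many weak peaks cannot be ordered at this depth: the intervals of the *Bbs9* peaks of 26 and 40 fragments overlap (17.0 to 38.1 and 28.6 to 54.5), while that of the peak of 58 fragments starts at 44.0, above the first.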
